A study of Mus musculus with 16 samples.

Results

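Pgm5, Rorb, Cxcr1, Nr5a2 and Lcn4 are 5 of the 21631 protein-coding genes that RefSeq places on mouse autosomes or X, and H3K27me3 peaks were called at or in them in more control than dnTCF4 libraries. They were chosen by that difference in peak presence, so the peak counts, covered lengths and fold values given here for the 2 groups describe the genes and are not tested. The study asked how EZH2 acts on chromatin in mouse metaplastic breast tumours, and mapped H3K27me3 by ChIPmentation in CCN6KOT, spindle metaplastic tumour cells without the gene CCN6, which the labels call both a line and primary cells. All cells received a lentivirus and were selected with puromycin. The control cells (PPGS in the titles) carried a control virus, although the series text calls them parental, and the dnTCF4 cells carried DNTCF4, described as a dominant negative construct for beta-catenin. Each group had 4 H3K27me3 libraries, and 8 further libraries made with IgG were not used here. The labels do not say which promoter drives DNTCF4 or whether the libraries come from separate cultures, so the spread between libraries may be technical. Peak lists hold no expression values, so neither the cell identity nor the construct was checked.

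H3K27me3 is the repressive histone mark that EZH2 writes as part of Polycomb repressive complex 2, and it often spreads over long stretches of silent genes. Rorb is a retinoid-related orphan nuclear receptor of retina and brain, and Nr5a2 (LRH-1) is a nuclear receptor that regulates bile acid and steroid genes and acts in early embryos and the pancreas. Cxcr1 is a receptor for neutrophil-attracting chemokines. Pgm5 (aciculin) belongs to the phosphoglucomutase family by sequence and sits at cell adhesions of muscle with dystrophin. Lcn4 is a lipocalin, one of a family of small secreted carriers of hydrophobic molecules, and also has the name Vnsp2, for vomeronasal secretory protein.

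The lists differed widely in length within each group. Control libraries 1 to 4 held 426, 738, 54070 and 22745 peaks, and dnTCF4 libraries 1 to 4 held 21492, 191, 4885 and 1838. Peaks covered from 0.00491% (dnTCF4 2) to 2.00% (control 3) of the annotated genome. Sequencing depth is unknown, and H3K27me3 may be present where no peak was called. Control 4 and dnTCF4 1 had the closest lengths in proportion, covering 16.3 Mb and 16.6 Mb, so values in these libraries are set side by side throughout.

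The promoters of these genes differ in CpG content, and most of them were not covered by a peak in any library. Of 21045 promoters of protein-coding genes, only 1.67%, 0.551% and 0.718% had a peak over them in control 3, control 4 and dnTCF4 1. Each sequence runs 5′ to 3′ on the gene's own strand (minus for all 5 genes) from 250 bases before the outermost RefSeq start site to 50 bases after it (build GRCm38.p6). Capitals mark CpG dinucleotides, the sites of DNA methylation. The Nr5a2 and Lcn4 promoters are shown because control peaks covered all of their 300 bases, at chr1:136960399-136960698 and chr2:26671233-26671532.
Nr5a2: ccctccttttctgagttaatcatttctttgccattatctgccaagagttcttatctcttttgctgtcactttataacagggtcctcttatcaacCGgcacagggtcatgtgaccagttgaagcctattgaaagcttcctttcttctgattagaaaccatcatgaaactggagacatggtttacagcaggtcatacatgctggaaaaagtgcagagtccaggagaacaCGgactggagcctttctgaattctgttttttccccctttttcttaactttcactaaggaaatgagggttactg
Lcn4: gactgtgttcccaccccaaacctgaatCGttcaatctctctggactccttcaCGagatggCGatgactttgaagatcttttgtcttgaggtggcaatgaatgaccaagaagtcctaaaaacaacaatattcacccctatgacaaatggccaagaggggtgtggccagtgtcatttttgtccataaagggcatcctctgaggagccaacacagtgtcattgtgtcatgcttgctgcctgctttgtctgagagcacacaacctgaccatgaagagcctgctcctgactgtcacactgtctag

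The promoters of Pgm5 (chr19:24861793-24862092), Rorb (chr19:19111147-19111446) and Cxcr1 (chr1:74194582-74194881) are shown because no library had a peak over them, although peaks lay close by or inside the gene.
Pgm5: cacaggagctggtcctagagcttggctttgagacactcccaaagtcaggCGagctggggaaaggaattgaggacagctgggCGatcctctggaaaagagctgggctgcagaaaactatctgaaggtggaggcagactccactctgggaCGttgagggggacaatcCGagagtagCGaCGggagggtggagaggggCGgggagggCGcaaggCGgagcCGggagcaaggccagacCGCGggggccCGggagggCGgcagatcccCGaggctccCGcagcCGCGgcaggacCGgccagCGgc
Rorb: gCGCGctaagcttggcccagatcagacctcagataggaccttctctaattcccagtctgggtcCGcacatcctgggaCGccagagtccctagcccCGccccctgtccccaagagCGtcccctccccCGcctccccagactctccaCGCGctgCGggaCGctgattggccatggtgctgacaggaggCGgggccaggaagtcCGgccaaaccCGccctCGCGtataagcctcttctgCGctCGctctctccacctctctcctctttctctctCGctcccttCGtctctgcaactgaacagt
Cxcr1: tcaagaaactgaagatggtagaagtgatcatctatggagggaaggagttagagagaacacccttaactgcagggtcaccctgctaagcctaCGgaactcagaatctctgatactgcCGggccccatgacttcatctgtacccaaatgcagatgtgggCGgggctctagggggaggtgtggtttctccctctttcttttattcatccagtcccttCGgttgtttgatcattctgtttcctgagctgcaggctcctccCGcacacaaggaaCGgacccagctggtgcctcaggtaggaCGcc

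The Pgm5 and Rorb promoters each hold 20 CpGs, with a GC content of 66.3% and 63.7% and an observed over expected CpG ratio of 0.65 and 0.71. The Cxcr1, Lcn4 and Nr5a2 promoters hold 7, 3 and 2 CpGs, with ratios of 0.34, 0.17 and 0.15. Over 21045 promoters of protein-coding genes the median ratio was 0.57 and the median GC content 56.7%. The Nr5a2 promoter was covered in control 3 and control 4, and in dnTCF4 1 the nearest peak lay 3655 bases away. The Lcn4 promoter was covered in control 3, while the nearest peak of control 4 lay 109 bases and that of dnTCF4 1 3450 bases away. Control 3 had a peak 363 bases from the Pgm5 promoter, and the control peaks nearest to the Cxcr1 promoter lay 68 bases (control 3) and 92 bases (control 4) from it. Rorb has a further start site inside the gene, whose promoter (chr19:19001068-19001367) was also uncovered, with a control 3 peak 792 bases away. The inner Nr5a2 promoter (chr1:136953581-136953880) was uncovered in every library. The motif CTTTGA, a form of the TCF/LEF binding site, was searched on both strands. It occurs in the Lcn4 and Pgm5 promoters and in 14.4% of all promoters. Other forms of the site were not searched.

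Counted over the gene body with 10 kb added on each side, all 5 genes had peaks in more control than dnTCF4 libraries, the pattern they were chosen by. Pgm5, Rorb and Cxcr1 had peaks in 3 control and 1 dnTCF4 library, Lcn4 in 3 and 2, and Nr5a2 in 2 and 1. Of all protein-coding genes, 20.5% had peaks in more control than dnTCF4 libraries in such windows, and of genes of at least 100 kb, 29.6% did. Pgm5, Rorb and Nr5a2 are of that length, at 184, 181 and 118 kb, and Cxcr1 and Lcn4 are short, at 2.92 and 3.61 kb. Lcn4 and Nr5a2 lie just inside the criterion with a difference of 1 library, as did 3737 genes (17.3%), and 1939 genes lay just outside it with equal numbers above 0. A difference of 2 or more, as at Pgm5, Rorb and Cxcr1, was seen at 702 genes (3.25%). Every dnTCF4 peak at these genes came from dnTCF4 1, except 1 peak of dnTCF4 3 at Lcn4.

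**Figure D1:**
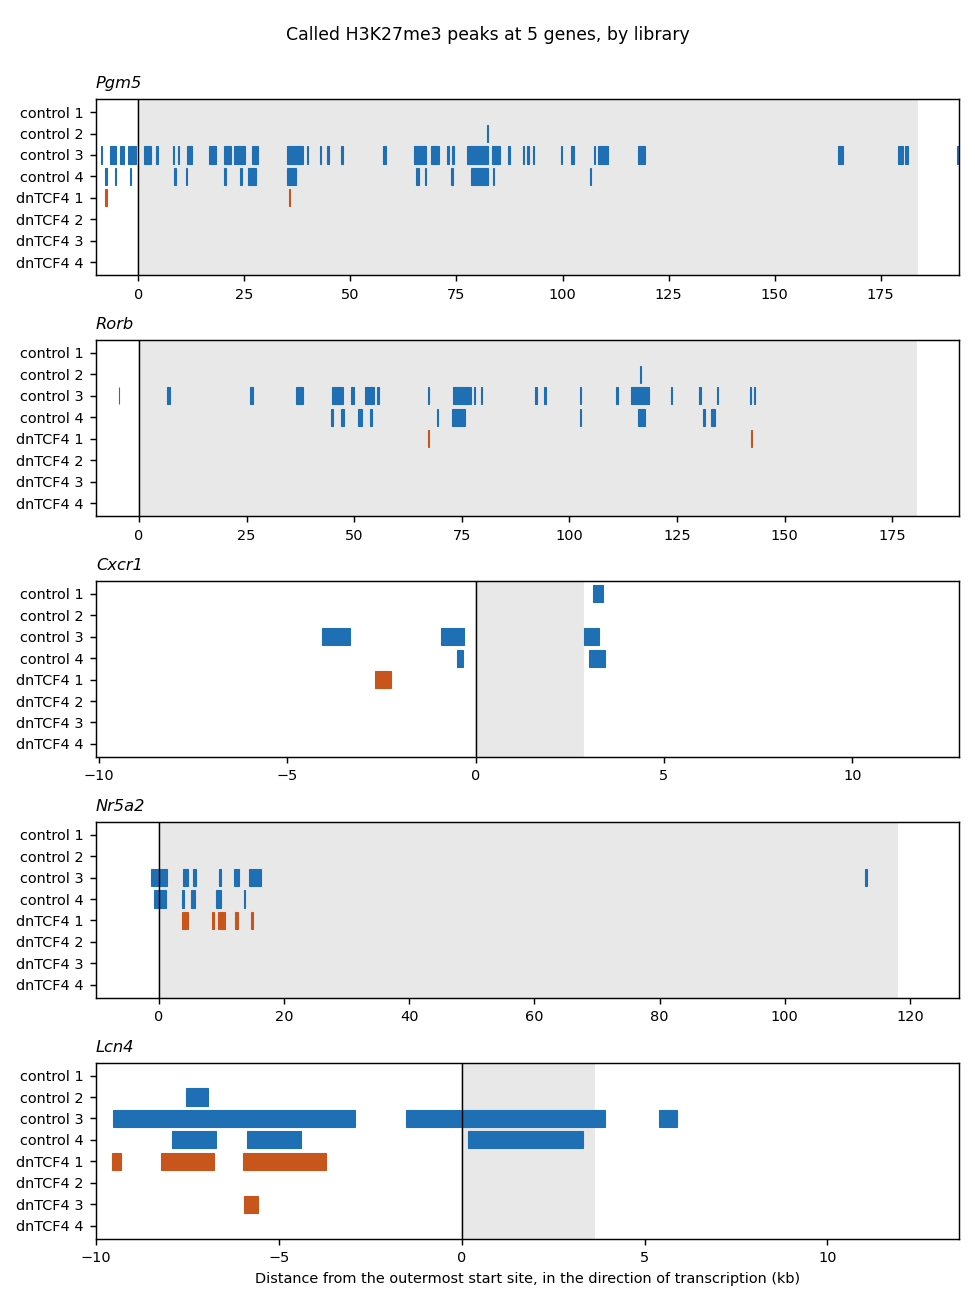
Called H3K27me3 peaks (blue for control, orange for dnTCF4 libraries) at each gene, with the distance from the outermost start site in kb on the x axis, 1 row per library and the transcribed part in grey. Pgm5 and Rorb show rows of control 3 and control 4 peaks with 2 peaks of dnTCF4 1 each. Most peaks of dnTCF4 1 at Nr5a2 and Lcn4 overlap control peaks, and none lies over the outermost start site.

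Pgm5 lies on chromosome 19 from 24678261 to 24861842. Its window held 0, 1, 38 and 15 peaks in control 1 to 4, and 2, 0, 0 and 0 in dnTCF4 1 to 4. Peaks covered 0%, 0.181%, 21.6% and 6.17% of the window in the control libraries, and 0.361%, 0%, 0% and 0% in the dnTCF4 libraries (7.0 ± 10.2% and 0.0901 ± 0.180%, SD, n = 4 each). The groups overlap, because control 1 had no peak and control 2 had less covered length than dnTCF4 1. Between the libraries of closest list length in proportion, control 4 had 17.1 times the covered share of dnTCF4 1. Chromosome 19 as a whole was covered to 1.32% and 1.31% in them. The peaks of control 3 formed an array rather than 1 block. They lay in 38 pieces of 182 to 5009 bp, with fold values of 2.81 to 3.75 over background.

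Called peaks at Pgm5 were densest from upstream of the start to the middle of the gene. Of 3 equal parts of the gene body counted from the start, the first, second and last were covered to 28.1%, 31.1% and 5.03% in control 3, and to 9.11%, 9.71% and 0% in control 4. The 10 kb before the start were covered to 43.2%, 10.5% and 3.53% in control 3, control 4 and dnTCF4 1. Merged over libraries, the window held 41 regions, of which 11 had peaks in both control 3 and control 4 and 27 in control 3 alone. The region found in the most control libraries spans 24779295 to 24784371, between 77.5 and 82.5 kb inside the gene, and had peaks in control 2, control 3 and control 4. There control 2 had a peak of 368 bp at fold 4.60, control 3 one of 5009 bp at 3.26 and control 4 one of 3938 bp at 3.50. Each dnTCF4 1 peak overlapped a control peak. One, of 381 bp, lay inside the gene at 24826007 to 24826387, in a region that control 3 and control 4 also had, and the other, of 353 bp, lay upstream at 24869305 to 24869657, where control 4 also had a peak. That second peak was the highest ranked of dnTCF4 1 at any of the 5 genes, at 1286 of 21492 by −log10 q. The window also takes in Tmem252 (24674008 to 24679661), and no peak overlapped the body of that gene.

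Rorb lies on the same chromosome from 18930609 to 19111196, far from Pgm5. Its window held 0, 1, 22 and 10 peaks in control 1 to 4 and 2, 0, 0 and 0 in dnTCF4 1 to 4. The covered share was 0%, 0.160%, 10.5% and 4.45% in control and 0.233%, 0%, 0% and 0% in dnTCF4 libraries (3.77 ± 4.92% and 0.0582 ± 0.116%, SD, n = 4 each). As at Pgm5, control 3 and control 4 stood above all other libraries, and control 2 lay below dnTCF4 1. The covered share in control 4 was 19.1 times that in dnTCF4 1.

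Peaks at Rorb lay inside the gene, with little before its outermost start. The first, second and last of 3 equal parts of the body were covered to 14.2%, 18.0% and 2.42% in control 3, and the 10 kb before the start to 2.05%. In control 4 the parts were covered to 4.00%, 8.75% and 2.08%. Of 26 merged regions, 5 had peaks in both control 3 and control 4. The region at 18992686 to 18996815, between 114 and 119 kb inside the gene, had peaks in control 2 (320 bp, fold 4.64), control 3 (4130 bp, 3.24) and control 4 (1672 bp, 3.63). The widest merged region, 4.42 kb at 19034023 to 19038444, held the Rorb peak of control 4 with the highest fold, 3.97, which ranked 1542 of 22745 by −log10 q. The 2 peaks of dnTCF4 1 were 280 and 187 bp wide with fold values of 3.45 and 3.38, both below the median fold of that list, and each overlapped a peak of control 3 but none of control 4.

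Cxcr1 lies on chromosome 1 from 74191785 to 74194708, and its peaks flanked the gene without touching it. The window held 1, 0, 3 and 2 peaks in control 1 to 4 and 1, 0, 0 and 0 in dnTCF4 1 to 4. The covered share was 1.21%, 0%, 7.69% and 2.47% in control and 1.86%, 0%, 0% and 0% in dnTCF4 libraries (2.84 ± 3.39% and 0.466 ± 0.931%, SD, n = 4 each). Here dnTCF4 1 fell between control 1 and control 4. The most shared region, 74191204 to 74191757, lies just past the 3′ end and had peaks in control 1 (278 bp, fold 4.29), control 3 (409 bp, 2.60) and control 4 (404 bp, 3.18). The control 1 peak was among the weakest of its list. It ranked 404 of 426 by −log10 q, at 1.09, and its fold was below the list median of 4.49. A second region, upstream of the start at 74194949 to 74195555, had peaks in control 3 and control 4. The single dnTCF4 1 peak (427 bp, fold 3.57) lay at 74196874 to 74197300, further upstream, and overlapped no control peak.

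Nr5a2 lies on chromosome 1 from 136842562 to 136960448, and nearly all of its peaks lay in the part nearest to the start. The window held 0, 0, 7 and 5 peaks in control 1 to 4 and 5, 0, 0 and 0 in dnTCF4 1 to 4. The covered share was 0%, 0%, 5.15% and 2.89% in control and 2.26%, 0%, 0% and 0% in dnTCF4 libraries (2.01 ± 2.50% and 0.564 ± 1.13%, SD, n = 4 each). Control 4 and dnTCF4 1 thus had the same number of peaks, and covered shares within 1.28 times of each other. The first of 3 equal parts of the gene body was covered to 8.08% and 7.92% in them and to 14.3% in control 3, and the second to 0% in all 3. They differed in position. A region over the outermost start site, 136959104 to 136961623, had peaks of 2520 bp in control 3 (fold 3.18) and 1928 bp in control 4 (3.44), and no peak in dnTCF4 1. The region 5.10 to 5.98 kb inside the gene also had peaks in control 3 and control 4 only. At 8.57 to 8.88 kb dnTCF4 1 alone had a peak, and at 12.1 to 12.8 kb and 14.5 to 16.4 kb dnTCF4 1 and control 3 had peaks without control 4. Both regions at 3.70 to 4.73 kb and at 9.14 to 10.5 kb inside the gene had peaks in control 3, control 4 and dnTCF4 1.

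Lcn4 lies on chromosome 2 from 26667674 to 26671282 and was the most densely covered of the 5 genes. The window held 0, 1, 3 and 3 peaks in control 1 to 4 and 3, 0, 1 and 0 in dnTCF4 1 to 4. The covered share was 0%, 2.63%, 53.1% and 24.7% in control and 17.0%, 0%, 1.52% and 0% in dnTCF4 libraries (20.1 ± 24.6% and 4.62 ± 8.26%, SD, n = 4 each). The values of the groups interleave, and that of control 4 was 1.46 times that of dnTCF4 1. Upstream of the gene, a region of 6.66 kb at 26674203 to 26680857 had peaks in control 2, control 3, control 4, dnTCF4 1 and dnTCF4 3. Over the gene itself, a region of 5.43 kb at 26667367 to 26672796 had peaks in control 3 (5430 bp, fold 3.44) and control 4 (3156 bp, 3.63) and in no dnTCF4 library. So the 10 kb before the gene were covered to 26.8% in control 4 and 40.0% in dnTCF4 1, and the gene body only in control 3 and control 4.

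**Figure D2:**
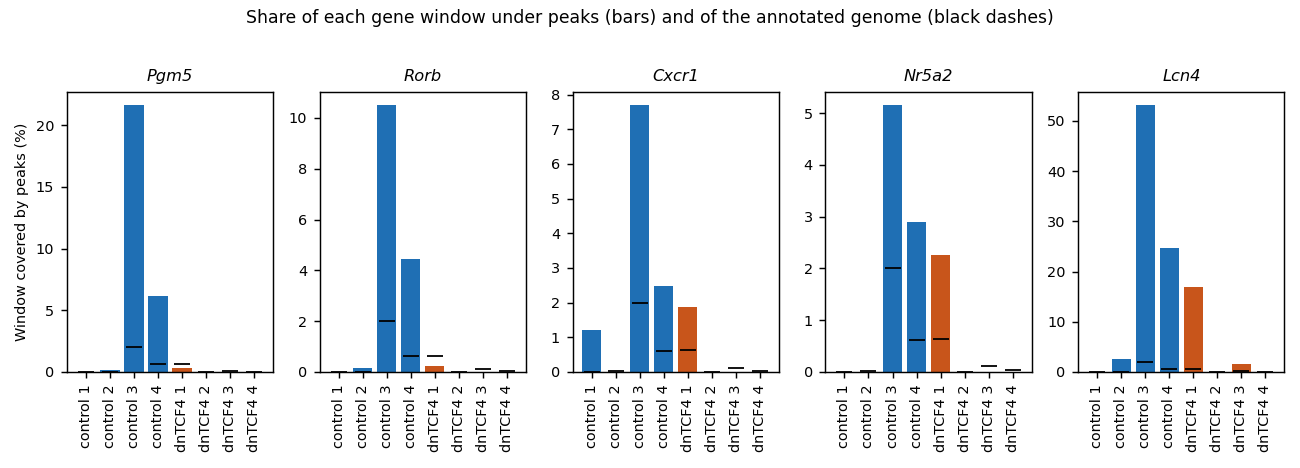
Percent of each gene window (gene body and 10 kb on each side) covered by peaks in each library (bars, blue for control and orange for dnTCF4), with the percent of the annotated genome covered in that library as a black dash, and a y axis of its own for each gene. The bars of control 3 are the highest at every gene, from 5.15% at Nr5a2 to 53.1% at Lcn4, and those of dnTCF4 1 lie below the dash at Pgm5 and Rorb only.

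The surroundings of the genes differed. In the 500 kb on each side of the Pgm5 window, peaks covered 1.17%, 0.380% and 0.249% in control 3, control 4 and dnTCF4 1, below the 4.15%, 1.32% and 1.31% of the whole chromosome. The flanks of Rorb were covered to 1.55%, 0.285% and 0.0348%, so in all 3 libraries the Pgm5 and Rorb windows were covered more densely than their flanks (0.361% and 0.233% of the windows in dnTCF4 1). The windows exceeded the share of the chromosome in control 3 and control 4 and lay below it in dnTCF4 1. Peaks in these windows are what the genes were chosen by. Around Lcn4 the flanks were covered to 14.6%, 6.27% and 5.35%, against 3.95%, 1.41% and 1.92% of chromosome 2, so this gene sits in a stretch that carried many peaks in all 3 libraries. The flanks of Cxcr1 (2.44%, 0.759% and 0.969%) were near the shares of chromosome 1 (2.16%, 0.517% and 0.620%). Those of Nr5a2 were covered to 2.06%, 0.344% and 0.510%.

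**Figure D3:**
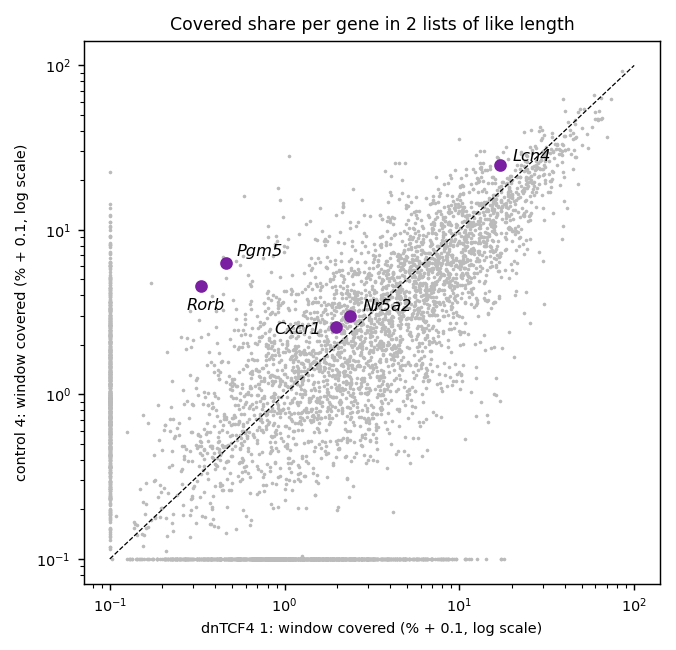
Percent of the gene window covered in control 4 (y axis) against dnTCF4 1 (x axis), both plus 0.1 on log scales, for the 5423 protein-coding genes with a peak in either library (grey) and the 5 genes (purple), with the line of equal values dashed. All 5 lie above the line, Pgm5 (6.17% and 0.361%) and Rorb (4.45% and 0.233%) far from it and Cxcr1, Nr5a2 and Lcn4 close to it.

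The 3 longest lists were also cut to one length, which shortens control 3 most, control 4 little and dnTCF4 1 not at all. When control 3, control 4 and dnTCF4 1 were each limited to their 21492 peaks with the highest −log10 q, Pgm5 kept 15, 14 and 2 peaks and Rorb 6, 10 and 2. The cut did not make covered length equal, as the cut lists covered 30.8, 15.7 and 16.6 Mb in these libraries. The Pgm5 window was then covered to 11.1%, 6.04% and 0.361%, and the Rorb window to 6.06%, 4.45% and 0.233%. Nr5a2 had 5 peaks in each of them, covering 3.54%, 2.89% and 2.26%. Lcn4 had 2, 3 and 3 peaks, covering 51.0%, 24.7% and 17.0%. At Cxcr1 control 3 kept 1 peak and its covered share fell to 1.78%, below the 1.86% of dnTCF4 1. Over the 5423 genes with a peak in control 4 or dnTCF4 1 in the deposited lists, 39.7% had the larger covered length in control 4, as all 5 genes did. Because these libraries are part of the contrast that chose the genes, nothing is read from that count. Limited to 1838 peaks each, control 3 kept 1 peak at Pgm5, control 4 kept 1 at Rorb and dnTCF4 1 kept 1 at Pgm5, and these libraries had no other peak in the 5 windows, so the order of control 4 and dnTCF4 1 turned at Pgm5.

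The peaks at these genes were of ordinary strength within their lists. The 73 peaks of control 3 had fold values from 2.60 to 3.75, and 42 of them exceeded the median of that list. In control 4, 24 of 35 peaks exceeded the median fold of 3.39, and in dnTCF4 1, 8 of 13 exceeded 3.50. All 3 peaks of control 2 exceeded the median fold of their list, and the 1 peak of control 1 did not. Wider peaks than the list median numbered 38 of 73, 18 of 35 and 4 of 13 in control 3, control 4 and dnTCF4 1. The widest, of 6617 bp in control 3 at Lcn4, exceeded the 95th percentile width of that list, 3045 bp. The highest −log10 q at any of the genes was 2.90, for a Pgm5 peak of control 3. In the shorter lists most peaks had higher folds: outside chromosome 9, 95% of peaks exceeded a fold of 4.00 in dnTCF4 4, 4.45 in dnTCF4 2 and 3.55 in dnTCF4 3, above most of the folds that control 3 had here. The same measure was 4.15 in control 1 and 3.98 in control 2. Control 2, with 738 peaks, had peaks at Pgm5, Rorb and Lcn4. In contrast, dnTCF4 3, with 4885, had one only at Lcn4 and dnTCF4 4, with 1838, had none. The genes were chosen for peaks in more control libraries. Of all protein-coding genes, 1.67% had a peak in control 2, 7.96% in dnTCF4 3 and 3.83% in dnTCF4 4. The part of list length in the missing peaks was not tested.

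**Figure D4:**
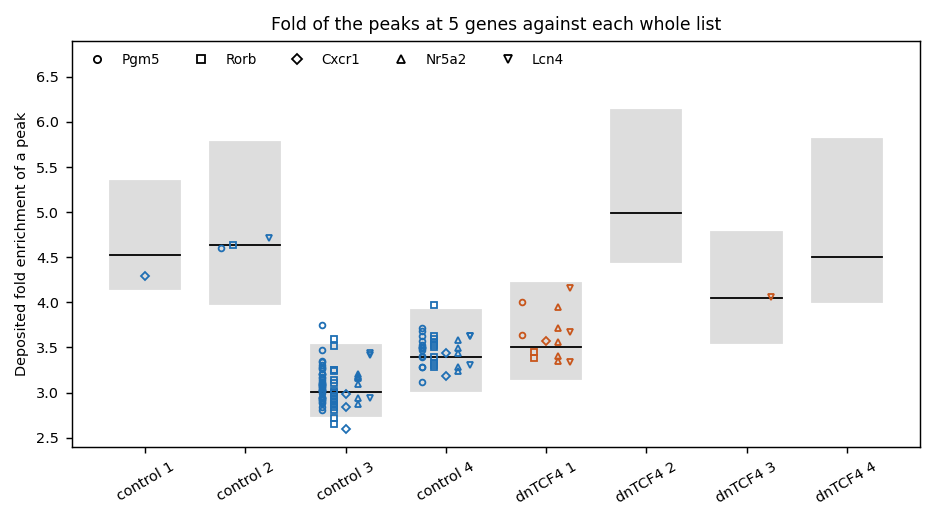
Deposited fold enrichment of every peak at the 5 genes (symbols by gene, blue for control and orange for dnTCF4), beside the range from the 5th to the 95th percentile (grey box) and the median (black line) of all peaks outside chromosome 9 in that library. The y axis starts at 2.4, the boxes stand higher in the shorter lists, and most peaks of the 5 genes fall inside their box.

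Most peaks at these genes overlapped a peak of control 3. Control 4 had 35 peaks in the 5 windows, of which 27 (77.1%) overlapped a peak of control 3 and 6 (17.1%) a peak of dnTCF4 1. Of the 13 peaks of dnTCF4 1, 10 (76.9%) overlapped a peak of control 3 and 6 (46.2%) a peak of control 4. All 3 peaks of control 2 and the 1 peak of control 1 overlapped peaks of both control 3 and control 4. The peak of dnTCF4 3 at Lcn4 also overlapped peaks in control 3, control 4 and dnTCF4 1. Control 3 covers the most sequence, which favours overlap with it. The same shares over the whole lists are not given here, and the genes were chosen by their control peaks. The overlaps therefore describe these windows and are not read as a trait of the genes.

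Genes elsewhere with the most similar covered shares over the 8 libraries were found by the Euclidean distance in percentage points. For Pgm5 these were Gucy2f on X, a guanylate cyclase of photoreceptors (distance 1.21, with 21.5%, 5.09% and 0.844% in control 3, control 4 and dnTCF4 1) and Lhcgr, the luteinizing hormone receptor (1.39). For Rorb they were F10, the gene of coagulation factor X (0.426), and Asb12 (0.640), neither of which had a peak in control 2. For Cxcr1 they were Dnah8 (1.16), a sperm dynein chain, and Rnf165 (1.30). The nearest to Nr5a2 were Spag4 (0.150) and 1300017J02Rik (0.346), and to Lcn4 the odorant receptor gene Olfr1413 (3.04) and Ces1c (4.57), a carboxylesterase.

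Some relatives of Rorb, Nr5a2, Cxcr1 and Lcn4 carried peaks in both groups. Over all protein-coding genes, 31.4%, 19.6% and 21.7% had a peak in control 3, control 4 and dnTCF4 1, 20.5% had peaks in more control and 3.69% in more dnTCF4 libraries, and 66.8% had none in any library. Of 49 nuclear receptor genes, 18, 14 and 17 had a peak in control 3, control 4 and dnTCF4 1. Peaks were in more control libraries at 12 (24.5%, against 20.5% of all genes) and in more dnTCF4 libraries at 4. Rorb and Nr5a2, chosen for this pattern, are among the 12. Hnf4a, a regulator of liver and gut genes, had peaks in 2 control and 3 dnTCF4 libraries, covering 9.69% of its window in control 4 and 20.2% in dnTCF4 1. Ppara, a sensor of fatty acids, also had peaks in 2 and 3. Nr2f1 and Nr4a2, nuclear receptors with roles in the nervous system, had peaks in 2 libraries of each group. Rora, a paralogue of Rorb named after its values were seen, had peaks in 2 control libraries and 1 dnTCF4 library, and was covered to 1.00%, 0.0568% and 0.0664% in control 3, control 4 and dnTCF4 1.

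Among 23 chemokine receptor genes, 9, 6 and 7 had a peak in control 3, control 4 and dnTCF4 1. Peaks were in more control libraries at 8 (34.8%, against 20.5% of all genes) and in more dnTCF4 libraries at 1. Cxcr1, chosen for this pattern, is among the 8. Ccr6, a receptor of lymphocytes, had peaks in 3 libraries of each group. Ccr7, which guides lymphocytes and dendritic cells to lymph nodes, and Ccr8 each had peaks in 2 control and 1 dnTCF4 library. Cxcr2, the neighbour of Cxcr1 at a distance of 30.5 kb and named after its values were seen, was covered to 15.1%, 10.6% and 13.0% in control 3, control 4 and dnTCF4 1. None of 5 chemokine ligand genes of these receptors (Cxcl1, Cxcl2, Cxcl3, Cxcl5 and Ppbp) had a peak in any library, as was so for 66.8% of all genes.

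Of 20 lipocalin genes listed, 17 matched the annotation, and 10 of these had a peak in control 3, 10 in control 4 and 10 in dnTCF4 1. Peaks were in more control libraries at 5 of the 17 (29.4%, against 20.5% of all genes) and in more dnTCF4 libraries at 0 (3.69% of all genes). Lcn4, chosen for this pattern, is among the 5. Lcn3 had peaks in 3 libraries of each group, and Lcn5 and Lcn8 in 2 of each. The median covered share of the 17 genes was 10.7%, 5.39% and 4.66% in control 3, control 4 and dnTCF4 1, where the median of all protein-coding genes was 0% in each. Most of the marked lipocalin genes lie on chromosome 2, and the distances between them were not measured.

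The shorter lists are read beside the same 66.8% of all genes without a peak. No other phosphoglucomutase gene of the 5 listed had a peak, and of 8 genes of adhesion and muscle proteins linked to Pgm5, Dmd alone had any, covering 0.236% of its long window in control 3. Of 13 partner and target genes of Nr5a2, 4 had peaks. The sterol transporter genes Abcg5 and Abcg8, whose windows overlap, had peaks in 2 control and 3 dnTCF4 libraries, and Cyp11a1, which starts steroid synthesis, had peaks in 2 and 1. Cyp19a1, the aromatase gene, had a peak in 1 control library. Among 8 clock genes with ROR elements only Npas2 had peaks, in 2 control libraries and 1 dnTCF4 library.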

How the data were processed

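The submitters' processing notes list MACS2 2.1.2, Bowtie2 2.3.4.1, bedtools 2.28.0, SAMtools 1.2, Picard 2.20.2, cutadapt and Trim Galore, and the build mm10, without options. Whether IgG served as the control in peak calling is not stated there. The authors deposited 1 list of 9 columns per H3K27me3 library, called per library as peak names show, with a fold enrichment (ratio), a −log10 p and a −log10 q (column 9) for each peak. The deposited score column was not used. All are the authors' own values and served to order, filter or characterise the peaks of 1 list at a time.

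Peaks overlapping the RefSeq gene body (GRCm38.p6) extended by 10 kb by at least 1 base were counted with Python 3.11.15, and all lengths include both ends. The overlap counts were tested on simulated data. The genes and the gene lists were chosen with earlier results of these data known, and no test was made. Named were the 5 genes, genes overlapping their windows, up to 4 genes per list with peaks in the most libraries and the 2 most similar genes for each. Alternatives were other windows, stricter minima, equal list lengths and leaving out each library.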

Additional observations from a re-analysis of the deposited data

Results flagged for a closer look

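In the dnTCF4 group, dnTCF4 1 stood apart from the other 3 libraries in the covered share of all 5 gene windows, with 0.361% at Pgm5, 0.233% at Rorb, 1.86% at Cxcr1, 2.26% at Nr5a2 and 17.0% at Lcn4. The other dnTCF4 libraries were at 0%, except dnTCF4 3 with 1.52% at Lcn4. Dixon's criterion is met by any value above 0 where the other 3 are exactly 0, as at Pgm5, Rorb, Cxcr1 and Nr5a2, and the genes were chosen by these values, so this is a description. Chance alone marks about 1 in 20 groups, 10 groups were examined, and the 5 values come from the same library, whose list of 21492 peaks is the longest of its group. No control library was marked in this way.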

How the results depend on the processing

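All 5 genes had peaks in more control than dnTCF4 libraries as reported. With a −log10 q of at least 2 this held for 2 genes (Rorb and Nr5a2), and with every list cut to the 191 peaks of the shortest, ranked by −log10 q or by fold, for 0, since no library then had a peak at any of them. Leaving out each library in turn gave 3 to 5 genes: 3 without control 3 (Pgm5, Rorb and Cxcr1) or without control 4 (the same 3), 4 without control 2, and 5 without any of the others. The gene body alone gave 4 genes, as peaks at Cxcr1 do not reach it, and 2 kb around both gene ends gave 4, as none reach those of Rorb. Lists over 1000 peaks cut to 1838 gave 4, without Nr5a2, which then had no peak. The shorter lists of control 1, control 2 and dnTCF4 2 were left uncut there. Cxcr1 then counted only through control 1 and Lcn4 only through control 2. Pgm5 had peaks in control 2 and control 3 against dnTCF4 1, and Rorb in control 2 and control 4. The other settings (50 kb flanks, fold of at least 3, 500 bases covered, lists over 10000 peaks cut to 21492) gave 5. Over 90 values per gene and setting, the difference in number of libraries was above 0 in 69, 0 in 21 and below 0 in 0. The genes were chosen for a difference above 0, and leaving out a dnTCF4 library cannot lower it. Nothing is read from this tally. No paired analysis was possible because the result comes from no test. Depth is unknown, so weak marking in the short lists cannot be told apart from none.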

Other observations

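Over all promoters, peaks were less frequent at CpG-rich than at other promoters in each of the 8 libraries, a difference that was not tested. Of 9547 promoters with a GC content above 50% and an observed over expected CpG ratio above 0.6, control 3 had peaks over 0.178%, control 4 over 0.0209% and dnTCF4 1 over 0.0943%. Of the 11498 other promoters the same libraries had peaks over 2.90%, 0.991% and 1.23%. The counts were low in the short lists, and dnTCF4 2 had only 1 and 2 promoters with a peak. With 2 kb added on each side, peaks were found at 8.71% of CpG-rich and 12.9% of other promoters in control 3, at 4.70% and 6.45% in control 4, and at 6.8% and 7.33% in dnTCF4 1, while in dnTCF4 2 and dnTCF4 4 the share was then higher for CpG-rich ones (0.0628% and 0.0435%, and 0.754% and 0.722%). Some genes have several promoters in this count.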
